A study of Mus musculus with 16 samples.

Results

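The Cip/Kip inhibitors, the D cyclins and the kinases they act on were followed in tissue of the dorsal raphe nucleus (DRN), a serotonin cell group of the brainstem. The set named 8 genes: the inhibitors Cdkn1a, Cdkn1b and Cdkn1c, the D cyclins Ccnd1, Ccnd2 and Ccnd3, and the kinases Cdk4 and Cdk6. It was chosen knowing from these same libraries that Cdkn1a was higher and Ccnd1 lower under dexamethasone (DEX), so every DEX value of a member is a description and carries no test. By symbol, 7 of the 8 genes were found among the 14504 genes of the expression table, and Cdk6 was not analysed here.

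RNA-seq of polyA RNA gave 16 DRN libraries from adult male C57BL/6 mice in 6 groups. The study describes more DRN samples than these 16, and the others were not analysed here. Controls (con) had no defeat and were housed singly before the experiment, and the other mice had 30 days of chronic social defeat by aggressive CD1 males and were classed by their behavior as passive (PS, dep1 in the labels) or active (AS, dep2) in coping. All mice were injected with saline or with 2 mg/kg of DEX, a synthetic agonist of the glucocorticoid receptor, 6 h before the tissue was collected. There were 3 con_sal, 2 PS_sal, 3 AS_sal, 3 con_dex, 3 PS_dex and 2 AS_dex libraries, each named by its group and the number in its label. The tissue was punched from frozen sections, so each library mixes neurons, glia and vessel cells, and fewer cells of a type cannot be told apart from less RNA per cell. The authors had left out DRN samples with low Tph2, so the libraries were in part selected for serotonin neuron content. By the study's account those left out came from DEX-treated PS and AS mice only. In PS and AS the selection thus removed samples from the DEX side alone, and its effect on those comparisons was not tested.

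Progression from G1 into S phase depends on D cyclins, which bind and activate CDK4 and CDK6. The active complexes phosphorylate the retinoblastoma protein, and this releases E2F transcription factors. The Cip/Kip proteins p21 (Cdkn1a), p27 (Cdkn1b) and p57 (Cdkn1c) bind cyclin-CDK complexes and restrain CDK2, while p21 and p27 can also help D cyclins assemble with CDK4. Glucocorticoids are widely known to slow the division of many cell types, and Cdkn1a is a well-known glucocorticoid-induced gene. Most neurons of the adult brain do not divide, whereas oligodendrocyte precursors, microglia and vessel cells can.

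The libraries held 38207157 to 62447298 reads in the listed genes, and the 10 most abundant genes took 4.06% to 6.45% of them. Levels are normalized counts, which are read counts divided by 1 size factor per library. Levels of different genes were compared only per kilobase (kb) of exon. Differences are on the log2(normalized count + 1) scale from a limma fit over all 14504 genes, with standard error (SE) and 95% interval, and a gene was called at a Benjamini-Hochberg (BH) adjusted p under 0.1. Both labels were checked on known genes. Fkbp5, a classic glucocorticoid receptor target, lay at 1241 to 1536 normalized counts in the 8 saline libraries and at 5578 to 6958 in the 8 DEX libraries. Tph2, the serotonin synthesis enzyme of raphe neurons, lay at 91760 normalized counts or more in each library. Samples with low Tph2 had been left out beforehand, so this check was in part set by that selection.

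Cdkn1a encodes p21, the inhibitor first known as a p53 target. Its gene lies at chr17:29090976-29100727 on the plus strand of GRCm38. In controls Cdkn1a measured 395, 522 and 378 normalized counts in con_sal_102, con_sal_104 and con_sal_114, against 3432, 2457 and 2939 in con_dex_101, con_dex_116 and con_dex_122. In PS mice it measured 496 and 480 in PS_sal_62 and PS_sal_68, against 3408, 3599 and 3213 in PS_dex_6, PS_dex_34 and PS_dex_64. In AS mice it measured 437, 395 and 488 in AS_sal_8, AS_sal_14 and AS_sal_40, against 2854 and 3029 in AS_dex_38 and AS_dex_42. Every DEX library lay far above every saline library, and the gap between the highest saline and the lowest DEX library was wider than the range within either treatment. The counts rested on 344 to 596 reads per saline library and 2663 to 3463 reads per DEX library.

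On the log2 scale Cdkn1a differed between DEX and saline by 2.77 (SE 0.14) among controls, 2.80 (SE 0.16) among PS mice and 2.74 (SE 0.16) among AS mice. Averaged over the 3 phenotypes it was 2.77 (SE 0.09, 95% interval 2.58 to 2.96), or 6.82-fold, and it ranked 4 from the top among the 14504 differences. The 3 phenotypes thus gave nearly the same size of difference, and the tests of these differences between phenotypes are given further on. Settings that could move the value, including other scalings, the count models and leaving out each library in turn, kept the average between 2.73 and 2.87.

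**Figure D1:**
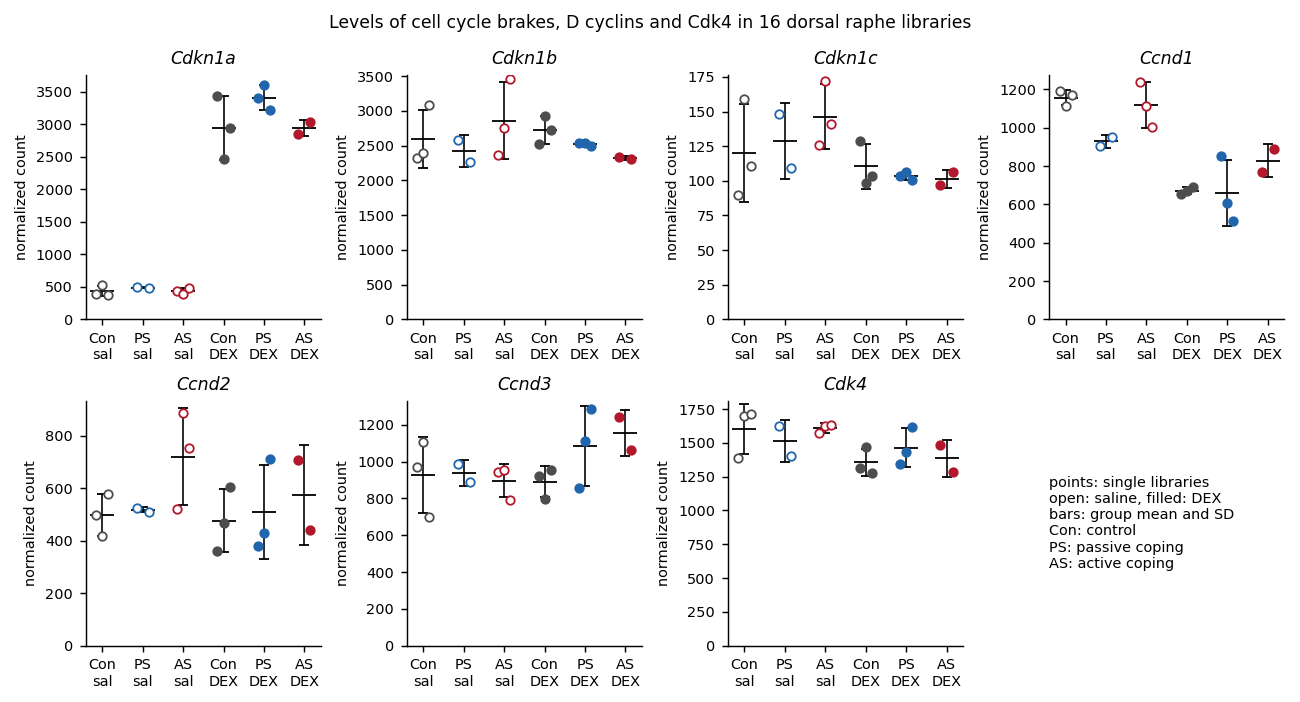
Normalized counts of the 7 listed genes (vertical axis, from 0) in the 6 groups (horizontal axis), with 1 point per library, open for saline and filled for DEX, and bars for the group mean and SD. Cdkn1a lies at 378 to 522 under saline and at 2457 to 3599 under DEX, Ccnd1 lies lower in each DEX library than in each saline library, and the other 5 genes overlap between the treatments.

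RefSeq lists 2 starts for Cdkn1a in its GRCm38.p6 promoter table, and the 250 bases before each are shown because Cdkn1a is the member with the largest DEX difference and p53 and glucocorticoid receptor sites are the motifs usually sought there. The first window is chr17:29090729-29090978 and the second is chr17:29093519-29093768, both on the plus strand. Capitals mark matches to the p53 decamer in the first window and to the GC box GGGCGG in the second.

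Cdkn1a, first start: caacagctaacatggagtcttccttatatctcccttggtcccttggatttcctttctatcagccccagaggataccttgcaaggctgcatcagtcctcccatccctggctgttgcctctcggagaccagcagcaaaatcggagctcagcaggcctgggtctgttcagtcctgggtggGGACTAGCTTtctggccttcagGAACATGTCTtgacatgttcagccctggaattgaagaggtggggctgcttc

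Cdkn1a, second start: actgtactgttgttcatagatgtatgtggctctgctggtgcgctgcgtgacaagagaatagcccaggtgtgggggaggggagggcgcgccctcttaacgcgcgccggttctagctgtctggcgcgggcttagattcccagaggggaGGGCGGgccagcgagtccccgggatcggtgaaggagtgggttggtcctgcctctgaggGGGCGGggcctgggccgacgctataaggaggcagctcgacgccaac

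The motifs were searched on both strands. The first window held 2 matches to the p53 decamer, beginning 73 and 51 bases before the start, and the second held none. The second window held 2 GC boxes, the nearer one beginning 46 bases before the start, and TATAA 25 bases before it. In the first window TATAA matched on the other strand, read as TTATA and beginning 227 bases before that start. Neither window held the glucocorticoid receptor half-site TGTTCT or the palindrome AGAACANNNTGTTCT, which contains that half-site on both strands. Of the 32851 promoter windows of this length, 7.13% held the p53 decamer, 32.7% the GC box, 22.8% TATAA, 16.1% the half-site and 0.00913% the palindrome. These matches describe the letters of the windows and were not tested as sites.

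Entries in the promoter table matched 5 of the 8 members, which were Cdkn1a, Cdkn1b, Ccnd3, Cdk4 and Cdk6. Cdkn1c, Ccnd1 and Ccnd2 were not matched. The Cdkn1b window held 1 GC box, the Cdk4 window 1, and the 2 Ccnd3 windows 2 and 1. The half-site was found in the Cdk6 window only, 119 bases before its start, and no member's window other than the first of Cdkn1a held the p53 decamer.

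Cdkn1b encodes p27, which in many tissues keeps resting cells out of the cycle. Its gene lies at chr6:134920401-134925513 on the plus strand and no annotated gene overlaps it. Cdkn1b lay between 2262 and 3457 normalized counts (median 2484) under saline and between 2301 and 2929 (median 2527) under DEX, so the treatments overlapped almost completely. Its DEX difference averaged -0.05 on the log2 scale (SE 0.08, 95% interval -0.23 to 0.13). By phenotype it was 0.08 for controls, 0.06 for PS and -0.28 for AS (SE 0.15). Only in AS did the treatments separate, with 2366, 2749 and 3457 in the saline libraries and 2342 and 2301 in the DEX libraries, the nearest pair being 2366 and 2342.

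Cdkn1c encodes p57, an imprinted inhibitor expressed mainly from the maternal allele, and lies at chr7:143458339-143461050 on the minus strand. It lay between 90.2 and 172 normalized counts (median 133.5) under saline and between 97.0 and 129 (median 103.4) under DEX. Cdkn1c averaged -0.30 on the log2 scale between DEX and saline (SE 0.15, 95% interval -0.61 to 0.01). In PS all 3 DEX libraries (103, 106 and 100) lay below both saline libraries (148 and 109), and in AS both DEX libraries (97.0 and 106) lay below the 3 saline libraries (126, 172 and 141). In controls the libraries overlapped, at 90.2, 159 and 111 under saline and from 98.7 to 129 under DEX. Each Cdkn1c value rested on 88 to 172 reads, the fewest of the members.

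Per kb of exon the order of the Cip/Kip genes differed between the treatments. Under saline Cdkn1b stood at 582 ± 93.2 normalized counts per kb (SD, n = 8), Cdkn1a at 126 ± 15.4 and Cdkn1c at 64.8 ± 13.7. Under DEX Cdkn1a stood at 877 ± 105 normalized counts per kb (SD, n = 8), Cdkn1b at 560 ± 44.3 and Cdkn1c at 51.8 ± 4.93. Cdkn1b therefore exceeded Cdkn1a in 8 of 8 saline libraries and Cdkn1a exceeded Cdkn1b in 8 of 8 DEX libraries, with a per-kb ratio of Cdkn1a to Cdkn1b of 0.157 to 0.280 under saline and 1.07 to 1.82 under DEX. The narrowest DEX margin was in con_dex_116, the library with the lowest Cdkn1a of the DEX groups.

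The summed level of the 3 inhibitors lay between 664 and 966 normalized counts per kb in the saline libraries and between 1365 and 1622 in the DEX libraries. Cdkn1a made up a median of 17.1% of that sum under saline (at most 19.7%) and of 60.4% under DEX (at most 62.4%). The share of Cdkn1b had a median of 74.7% under saline and 36.2% under DEX, while its own level differed by -0.05 on the log2 scale.

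**Figure D2:**
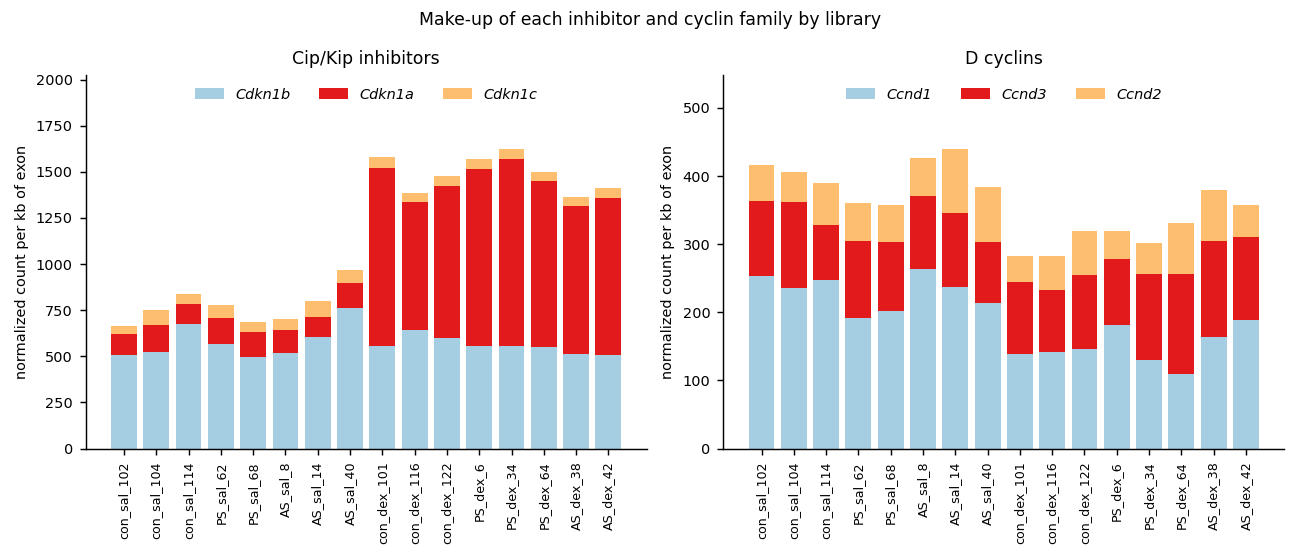
Stacked bars of normalized counts per kb of exon (vertical axes, from 0) in each of the 16 libraries (horizontal axes), for the 3 Cip/Kip inhibitors on the left and the 3 D cyclins on the right. The Cdkn1a segment makes up a median of 17.1% of the inhibitor bar under saline and 60.4% under DEX, and the Ccnd1 segment is the tallest of the cyclin bar in each library except PS_dex_64.

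Ccnd1 encodes cyclin D1, the D cyclin best known as a readout of growth factor signaling. Its gene lies at chr7:144929931-144939925 on the minus strand. In controls Ccnd1 measured 1191, 1113 and 1168 normalized counts under saline and 655, 670 and 690 under DEX. In PS mice it measured 906 and 950 under saline and 853, 610 and 516 under DEX. In AS mice it measured 1240, 1114 and 1003 under saline and 769 and 888 under DEX. Each of the 8 DEX libraries lay below each of the 8 saline libraries, with the closest approach between AS_dex_42 (888) and PS_sal_62 (906).

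The DEX difference of Ccnd1 was -0.78 on the log2 scale for controls (SE 0.15), -0.52 for PS (SE 0.17) and -0.43 for AS (SE 0.17). Its average was -0.58 (SE 0.10, 95% interval -0.78 to -0.37), or 0.669-fold, and ranked 188 from the bottom of the 14504 differences. The average stayed between -0.65 and -0.53 under every alternative setting run. PS_dex_6 stood apart from the other 2 PS DEX libraries, and without it the PS difference was -0.73.

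Ccnd2 encodes cyclin D2 and lies at chr6:127125162-127152193 on the minus strand. It was the most variable member, with a within-group SD of 0.37 on the log2 scale, at the 79.9th percentile of all genes. Ccnd2 lay between 416 and 885 normalized counts (median 522.5) under saline and between 361 and 713 (median 453.3) under DEX. Its DEX difference averaged -0.16 on the log2 scale (SE 0.17, 95% interval -0.53 to 0.20), and the treatments overlapped within each phenotype.

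Ccnd3 encodes cyclin D3 and lies at chr17:47505051-47599691 on the plus strand. It lay between 700 and 1106 normalized counts (median 948.4) under saline and between 799 and 1284 (median 1009) under DEX, with an average difference of 0.17 on the log2 scale (SE 0.11, 95% interval -0.06 to 0.41). In AS both DEX libraries (1242 and 1064) lay above the 3 saline libraries (944, 953 and 793), a difference of 0.36 (SE 0.20, 95% interval -0.06 to 0.79). In controls the difference was -0.03 and the libraries overlapped. In PS DEX libraries Ccnd3 measured 856, 1113 and 1284 in PS_dex_6, PS_dex_34 and PS_dex_64, where Ccnd2 measured 381, 431 and 713 and Ccnd1 853, 610 and 516, so the library highest in Ccnd1 was the lowest in the other two cyclins.

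Per kb of exon Ccnd1 was the leading D cyclin under saline, at 230 ± 25.5 normalized counts per kb (SD, n = 8), followed by Ccnd3 at 105 ± 14.3 and Ccnd2 at 62.3 ± 16.5. Under DEX Ccnd1 stood at 150.0 ± 26.4 normalized counts per kb (SD, n = 8), Ccnd3 at 117 ± 20.1 and Ccnd2 at 54.5 ± 15.1. Ccnd1 exceeded Ccnd3 in 8 of 8 saline libraries and in 7 of 8 DEX libraries, the exception being PS_dex_64. The share of Ccnd1 in the summed D cyclin level was 53.3% to 63.8% under saline and 33.0% to 56.7% under DEX.

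The summed D cyclin level was 357 to 439 normalized counts per kb in saline libraries and 282 to 380 in DEX libraries, which overlapped. The per-kb ratio of summed inhibitors to summed D cyclins was 1.59 to 2.52 under saline and 3.59 to 5.60 under DEX. This ratio describes RNA only, and no protein was measured.

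Cdk4 encodes the catalytic partner of the D cyclins and lies at chr10:127063534-127067920 on the plus strand. It lay between 1392 and 1712 normalized counts (median 1626) under saline and between 1279 and 1621 (median 1388) under DEX. Cdk4 averaged -0.17 on the log2 scale between DEX and saline (SE 0.07, 95% interval -0.32 to -0.02), or 0.889-fold, with -0.24 in controls, -0.05 in PS and -0.22 in AS. Its within-group SD of 0.13 was at the 18.4th percentile of all genes and was the smallest of the members. Per kb of exon Cdk4 exceeded Ccnd1 in each library, by 1.69- to 2.60-fold under saline and 2.10- to 4.56-fold under DEX.

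**Figure D3:**
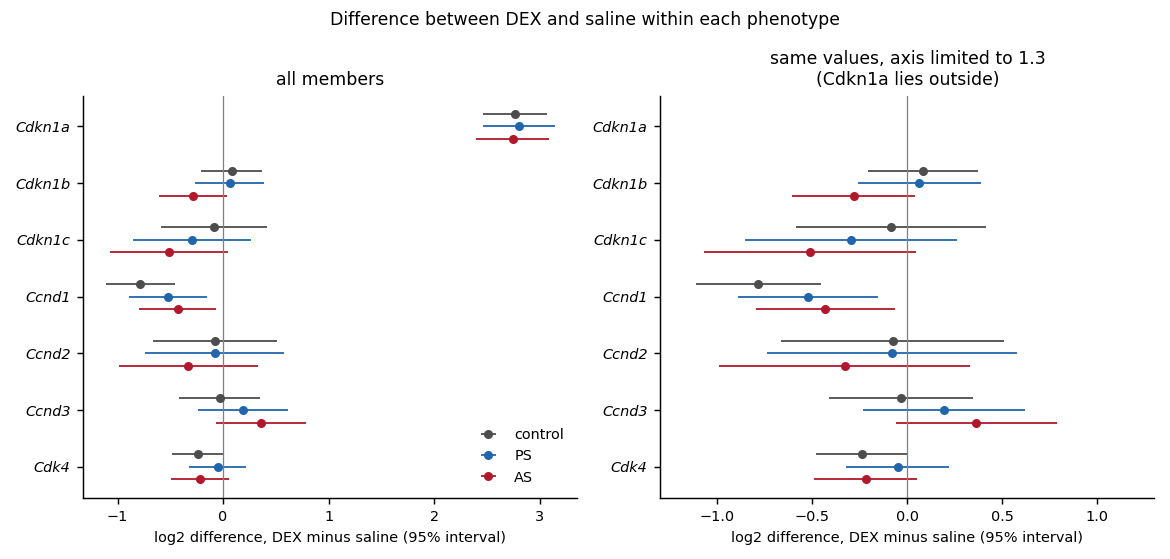
Difference between DEX and saline on the log2 scale (horizontal axis) for the 7 listed genes (vertical axis) in controls, PS and AS, with points for the estimate and lines for the 95% interval, with the same values redrawn on the right over a shorter axis. Cdkn1a lies at 2.74 to 2.80 in the 3 phenotypes, Ccnd1 at -0.78 to -0.43 and the other members between -0.51 and 0.36. The set was chosen on this contrast, so the intervals describe precision and are no test.

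Of the 7 listed members, 2 (Cdkn1a higher and Ccnd1 lower) were called for DEX in controls, where 1.26% of all genes were called. In PS 1 member (Cdkn1a) was called beside 0.703% of all genes, in AS 1 (Cdkn1a) beside 0.689%, and in the average over phenotypes 2 (Cdkn1a and Ccnd1) beside 4.31%. Nothing is read from these counts because the members were chosen on these contrasts. The Ccnd1 call in controls was lost when con_dex_101 or con_dex_122 was left out, leaving 1 call, and without PS_dex_6 there were 2 calls in PS.

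Counting may have mixed neighboring genes, because the libraries were strand-specific but whether counting used the strand is not stated. Ccnd1 overlaps LTO1, Ccnd3 overlaps Bysl and Cdk4 overlaps Tspan31, each on the other strand, and Cdkn1a, Cdkn1c and Ccnd2 overlap a less well-defined or antisense gene. The DEX averages of the overlapping coding genes were 0.20 for LTO1 (adjusted p = 0.28), -0.25 for Bysl (adjusted p = 0.188) and -0.12 for Tspan31 (adjusted p = 0.586) in the limma fit.

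The stress phenotypes were then compared under saline, a contrast that did not choose the members. None of the 7 listed members was called by limma in PS against control, AS against control or AS against PS, where 0, 0 and 0% of all genes were called. At an unadjusted p under 0.05 there were 1112, 347 and 494 genes and 0, 0 and 0 members. edgeR called 0 genes in each of these 3 contrasts and DESeq2 called 4, 11 and 1, none of them a member.

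Ccnd1 gave the lowest p of the members in PS under saline. Both PS saline libraries (906 and 950 normalized counts) lay below the 3 control saline libraries (1113 to 1191) and the 3 AS saline libraries (1003 to 1240). The difference from controls was -0.32 on the log2 scale (SE 0.17, 95% interval -0.69 to 0.05), with an adjusted p of 0.571 in limma. AS against PS was 0.26 (SE 0.17, 95% interval -0.10 to 0.63, adjusted p = 0.728 in limma), and AS against control was -0.05 (95% interval -0.38 to 0.28).

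Ccnd2 was highest in AS saline, at 521, 885 and 754 normalized counts, against 498, 416 and 576 in control saline and 524 and 510 in PS saline. The AS difference from controls was 0.51 on the log2 scale (SE 0.27, 95% interval -0.08 to 1.10), with an adjusted p of 0.998 in limma, and the groups overlapped. This was the widest interval of the members in that contrast.

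For the other members the saline differences between phenotypes lay between -0.15 and 0.31 on the log2 scale. Cdkn1a was 0.19 higher in PS than in controls (95% interval -0.15 to 0.53) and 0.04 higher in AS (95% interval -0.27 to 0.34). The largest of these differences was that of Cdkn1c in AS against control, 0.31 (95% interval -0.19 to 0.81). Cdk4 differed by 0.09 or less in each of the 3 contrasts.

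Under DEX none of the 7 members was called in PS against control (0% of all genes), AS against control (0.00689%) or AS against PS (0%). At an unadjusted p under 0.05 limma gave 178, 508 and 247 genes and 0, 0 and 0 members, edgeR called 0, 0 and 0 genes and DESeq2 0, 12 and 5, with 0 members among them. Ccnd1 was 659 ± 174 (SD, n = 3) normalized counts in PS DEX and 828 ± 84.3 (SD, n = 2) in AS DEX. The AS difference from PS was 0.36 on the log2 scale (SE 0.17, 95% interval -0.01 to 0.72), with an adjusted p of 1 in limma. Both AS DEX libraries (769 and 888) lay above the 3 control DEX libraries (655 to 690), a difference of 0.30 (SE 0.17, 95% interval -0.07 to 0.67, adjusted p = 0.99 in limma).

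Ccnd3 under DEX was also higher in both AS libraries than in the 3 control libraries, at 1242 and 1064 against 920, 799 and 955, a difference of 0.37 on the log2 scale (SE 0.20, 95% interval -0.05 to 0.80, adjusted p = 0.99 in limma). Cdkn1b was lower in both AS DEX libraries (2342 and 2301) than in the 3 control DEX libraries (2519, 2929 and 2727), a difference of -0.23 (SE 0.15, 95% interval -0.55 to 0.10). For Cdkn1a, AS DEX libraries lay below the 3 PS DEX libraries, a difference of -0.21 (SE 0.16, 95% interval -0.55 to 0.13), and within the range of the control DEX libraries.

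Averaged over both treatments, 0 members were called in PS against control (0% of all genes), AS against control (0.0138%) and AS against PS (0%). In these contrasts limma gave 940, 305 and 277 genes at an unadjusted p under 0.05, edgeR called 0, 7 and 0 genes and DESeq2 2, 37 and 0. The 1 member at an unadjusted p under 0.05 was Ccnd1 in AS against PS, higher by 0.31 on the log2 scale (SE 0.12, 95% interval 0.05 to 0.57), with an adjusted p of 0.979 in limma. Its adjusted p lay between 0.247 and 1 over the alternatives, so it did not pass the threshold in any of them. Cdkn1a averaged 0.21 higher in PS than in controls (SE 0.11, 95% interval -0.02 to 0.44, adjusted p = 0.557 in limma).

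**Figure D4:**
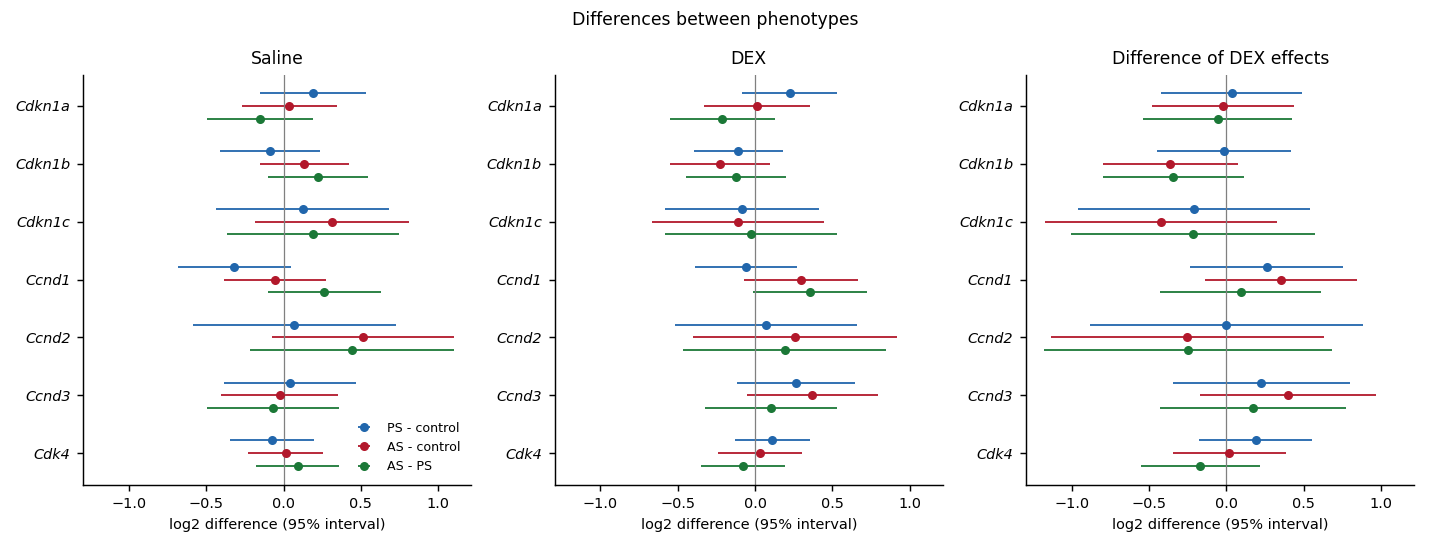
Differences between phenotypes on the log2 scale (horizontal axes) for the 7 listed genes (vertical axes), with points for the estimate and lines for the 95% interval. The panels give saline libraries, DEX libraries and the difference of the DEX effects, and each interval contains 0.

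The last contrasts asked whether the DEX difference itself depended on the phenotype. No member was called in the interactions of PS against control, AS against control or AS against PS, where 0, 0 and 0% of all genes were called. At an unadjusted p under 0.05 limma gave 304, 583 and 421 genes with 0, 0 and 0 members, edgeR called 0, 0 and 0 genes and DESeq2 0, 0 and 1, not a member.

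For Cdkn1a the DEX difference of PS minus that of controls was 0.03 on the log2 scale (95% interval -0.43 to 0.49), that of AS minus controls -0.02 (95% interval -0.48 to 0.43) and that of AS minus PS -0.06 (95% interval -0.54 to 0.43). The Cdkn1a responses of the 3 phenotypes were thus not resolved from each other, and the intervals leave room for differences of up to 0.54 in size. For Ccnd1 the interactions were 0.26 in PS (95% interval -0.23 to 0.75) and 0.35 in AS (95% interval -0.14 to 0.85), each in the direction of a smaller DEX difference in the stressed mice. The lowest unadjusted p among the members was that of Cdkn1b for AS against control, -0.36 (SE 0.20, 95% interval -0.80 to 0.07, adjusted p = 0.941 in limma).

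Other cell cycle genes were taken from 8 lists, and 82 of their 119 genes were in the table. The lists were chosen with earlier results of these data known, so their DEX counts and adjusted p-values are descriptions. In the DEX average 9 of these 82 genes were called higher and 0 lower, where 2.78% of all genes were called higher and 1.53% lower. Called or not, 53 of the 82 differences were positive and 29 negative. Their median was 0.04 on the log2 scale beside -0.003 over all genes. In controls 2 of the 82 were called (1.26% of all genes), in PS 2 (0.703%) and in AS 0 (0.689%). There were 5 calls without PS_sal_68 and 16 with library weights. None of the 82 genes was called in the contrasts of phenotypes or in the interactions, where at most 0.0138% of all genes were called.

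In the list of other antiproliferative genes 2 of 16 were called higher and 0 lower. Ccng1, which encodes cyclin G1 and is a p53 target, lay at 1701 to 2951 normalized counts under saline and 2954 to 5210 under DEX. Its average difference was 0.98 on the log2 scale (SE 0.14, adjusted p = 0.000609 in limma), and it was the one pathway gene called in both controls (1.02) and PS (1.21). Tob2, an antiproliferative protein of the BTG/TOB family, lay at 858 to 1027 under saline and 1062 to 1533 under DEX, a rise of 0.50 (SE 0.09, with an adjusted p of 0.00376 in limma). Ccng1, Tob2, Sesn1, Foxo1 and Cebpa were called under every alternative setting run.

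In the p53 list 3 of 17 were called higher and 0 lower, with a median of 0.07 on the log2 scale. Besides Ccng1 these were Sesn1, a stress-induced inhibitor of mTORC1 signaling (0.38, SE 0.07, with an adjusted p of 0.00839 in limma), and Trp53inp1, a p53 cofactor (0.44, SE 0.10, adjusted p = 0.0272 in limma). Trp53inp1 differed by 0.75 in controls, 0.59 in PS and -0.02 in AS, and its call in the average was lost without PS_sal_68 or AS_dex_42. The 14 other genes of the list, among them Trp53 itself, were not called.

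Among 17 regulators of Cip/Kip and D cyclin transcription 2 were called higher and 0 lower. Foxo1, a forkhead factor that activates Cdkn1b and represses D cyclins in several cell types, lay at 514 to 852 normalized counts under saline and 847 to 1266 under DEX, a difference of 0.64 on the log2 scale (SE 0.11, adjusted p = 0.00254 in limma). Cebpa, a factor that halts proliferation in liver and fat precursors, lay at 124 to 186 under saline and 183 to 333 under DEX, a rise of 0.75 (SE 0.13, with an adjusted p of 0.00338 in limma).

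Among 13 genes for the turnover of p21, p27 and D cyclins 2 were called higher and 0 lower. Usp2, a deubiquitinase that stabilizes cyclin D1, was higher by 0.61 (SE 0.14, with an adjusted p of 0.0293 in limma), and Fbxo31, part of a ubiquitin ligase for cyclin D1, by 0.22 on the log2 scale (SE 0.05, with an adjusted p of 0.0405 in limma). The Usp2 call was lost without PS_sal_68 or AS_dex_38, and the Fbxo31 call without PS_sal_62, PS_sal_68 or AS_dex_42.

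Of 9 pocket protein and E2F genes 1 was called higher and 0 lower. Rbl2, which encodes the retinoblastoma relative p130 of resting cells, was higher by 0.17 (SE 0.05, with an adjusted p of 0.0622 in limma). Leaving out any of 10 libraries ended that call, namely PS_sal_62, PS_sal_68, AS_sal_14, con_dex_101, con_dex_116, con_dex_122, PS_dex_6, PS_dex_64, AS_dex_38 and AS_dex_42, and so did quantile normalization. The highest adjusted p of Rbl2 over the 25 alternatives was 0.203.

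The remaining lists held no call. Of the INK4 inhibitors, which block CDK4 and CDK6 directly, 1 of 4 was listed, Cdkn2d, at 1693 to 2235 normalized counts under saline and 1350 to 2031 under DEX (-0.11 on the log2 scale, adjusted p = 0.503 in limma). Of the late G1 and S phase genes 7 of 11 were listed, and the highest in normalized counts were Ccnh (-0.09 on the log2 scale, adjusted p = 0.69 in limma) and Cdk7 (0.18, adjusted p = 0.267 in limma), the cyclin and kinase of the CDK-activating complex. Of 20 proliferation markers 4 were listed, and the highest in normalized counts were Pcna (-0.20 on the log2 scale, adjusted p = 0.494 in limma), the DNA polymerase clamp, and Mcm4 (0.03, adjusted p = 0.901 in limma), part of the replicative helicase. The other 16 markers, Mki67 and Top2a among them, were not analysed here.

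**Figure D5:**
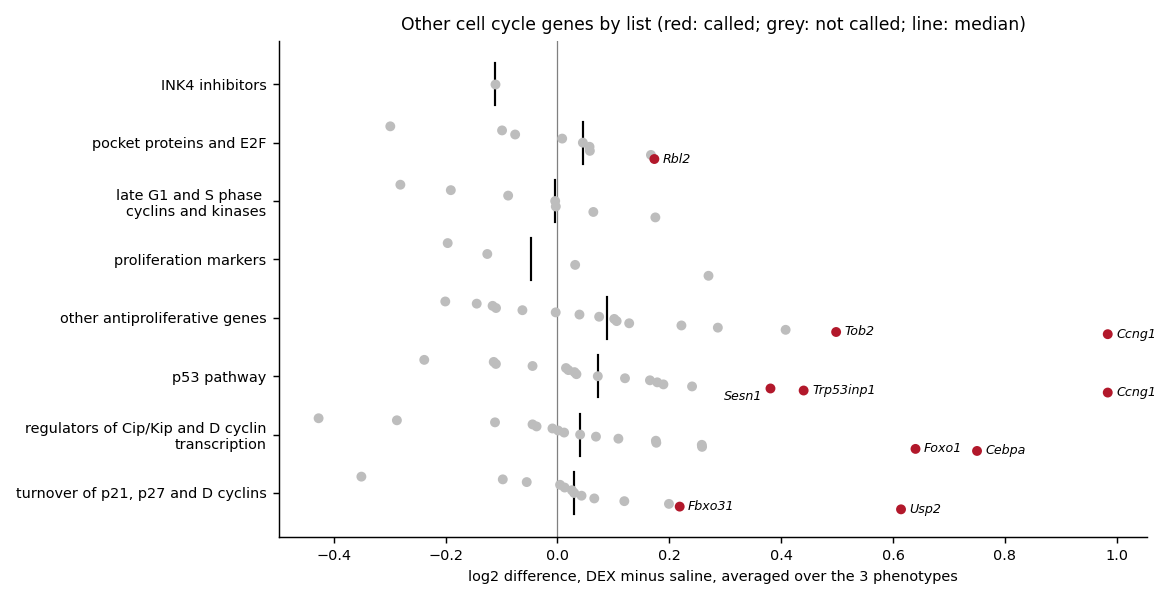
Difference between DEX and saline averaged over the 3 phenotypes on the log2 scale (horizontal axis) for the other cell cycle genes by list (vertical axis), with red points for called genes, grey points for the rest and a line at the list's median. The called genes all lie above 0, from 0.17 for Rbl2 to 0.98 for Ccng1, and Ccng1 stands in both lists that hold it.

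The genes whose levels were most like those of Cdkn1a over the 16 libraries, among 12862 genes with a mean of at least 100 normalized counts, were Fkbp5 (Pearson r = 0.99), Agfg2 (0.99), Plin4 (0.99), Nxf3 (0.97) and Pla2g3 (0.97). Each was higher under DEX, by 2.15, 0.68, 4.38, 2.92 and 1.60 on the log2 scale, and the 16 points share the split into 2 treatments. On deviations from the 6 group means, which remove that split, the most alike were Stx6 (0.91), Mtif3 (0.90) and Atg101 (0.90).

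For Ccnd1 the most alike by level were Wnt7a (Pearson r = 0.91), Klf16 (0.87), Pllp (0.87), Rftn1 (0.87) and Fgfr2 (0.87), all lower under DEX, by -1.001, -0.40, -1.14, -0.43 and -0.83 on the log2 scale. On deviations from the group means they were Clstn1 (0.93), Dcaf12l2 (0.93) and Magee1 (0.93), with DEX averages of -0.03, -0.19 and 0.02. On those deviations the rank correlation (Spearman) was 0.72 for Clstn1, 0.94 for Dcaf12l2 and 0.88 for Magee1. These correlations are descriptions over 16 libraries, and the genes named were picked as the highest among 12862 compared.

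Markers of the cells in the punch were followed beside Cdkn1a and Ccnd1 in the DEX average. Of all genes 1.53% were called lower and 2.78% higher in that contrast. These lists too were chosen with earlier results of these data known. Of 11 myelin genes 5 were called lower and 0 higher, and the list had a median of -0.37 on the log2 scale. Those called were Opalin (-1.71), Ugt8a (-0.86), Ermn (-0.62), Mog (-0.43) and Cnp (-0.37). The summed myelin level was 138800 to 227600 normalized counts under saline and 135600 to 191000 under DEX. Of 11 microglial genes 3 were called lower, Aif1 (-0.92), Cx3cr1 (-0.83) and P2ry12 (-0.59), and 0 higher. The microglial list had a median of -0.13 and sums of 10640 to 16200 and 9862 to 11450. Of 8 oligodendrocyte precursor genes 2 were called higher, Neu4 (0.65) and Pdgfra (0.30), and 0 lower. That list had a median of 0.03 and sums of 12240 to 17100 and 13460 to 16350.

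Of 10 serotonin neuron genes 1 was called lower (Htr1a, -0.25) and 0 higher, with a median of -0.06. Their sums were 337200 to 476900 under saline and 318700 to 467600 under DEX. Among 9 endothelial genes 1 was called lower (Tek, -0.46) and 0 higher (median -0.05, sums of 6399 to 10510 and 7275 to 9342). Among 8 mural cell genes 1 was called lower (Vtn, -0.63) and 0 higher (median -0.32, sums of 5956 to 9812 and 5145 to 8271). Astrocyte genes (0 of 9, median -0.02, sums of 123100 to 158600 and 130100 to 146000), ependymal genes (0 of 7, median -0.27, sums of 2096 to 9926 and 518 to 11310) and choroid plexus genes (0 of 4, median 0.43, sums of 265 to 1546 and 667 to 1698) held no call, and 1 of the 4 choroid plexus genes was at 0 in at least 1 library. The part of these cell types in the Cdkn1a and Ccnd1 values was not tested. The summed levels of each list overlapped between the treatments, whereas those of Cdkn1a and Ccnd1 did not.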

How the data were processed

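The values analysed are the signal the authors deposited as normalized counts. Per the labels and the study's methods, fastp v0.20.1 was used for trimming, HISAT2 v2.2.1 for alignment to GRCm38 (mm10), featureCounts of Subread v2.0 for counting and DESeq2 v1.36.0 for scaling. The authors' comparison tables (log2 fold changes, p-values, adjusted p-values) were not used. Multiplied by the size factors, 100% of values came within 0.1 of whole reads. In at least 1 library 973 listed genes had fewer than 10 reads, although the stated filter is 10.

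In limma v3.58.1 (R v4.3.3) all 16 libraries, grouped by their titles, gave a mean per group of log2(normalized count + 1), which understates differences of low genes. eBayes had a trend (10 residual and 3.88 prior degrees of freedom), BH ran over 14504 genes, and 16 contrasts were made. Alternatives were edgeR v4.0.16 and DESeq2 v1.42.0 on the recovered reads, pseudocounts of 0.1 and 10, a mean of at least 100, TMM, quantile normalization, library weights, fits to the compared groups alone and leaving out each library. Exon lengths came from GENCODE and promoters from RefSeq.

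The members and lists were chosen with earlier results of these data known. Genes named were the 8 members, up to 4 genes per list with the smallest p among those called in the DEX average (otherwise the 2 highest in level), Fkbp5 and Tph2 as checks, and the genes most like Cdkn1a and Ccnd1 (5 by level, 3 by deviation). Called cell type markers and genes overlapping members were named besides these.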

Additional observations from a re-analysis of the deposited data

How the results depend on the processing

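No paired analysis was possible because the groups compared share no library numbers. Over the 25 alternatives no called value of a member reversed. The number of members called for DEX in controls (2 of 7) was 1 to 2 when libraries were left out, with 1 without con_dex_101 or con_dex_122. In PS (1 called) it was 2 with library weights and 1 to 2 when libraries were left out, with 2 without PS_dex_6, where the Ccnd1 difference was -0.73. In AS (1 called) and in the DEX average (2 called) it was 3 with library weights. The number of other cell cycle genes called in the DEX average (9) was 16 with library weights and 5 to 10 when libraries were left out, with 5 without PS_sal_68. The cause was not tested. In the other 12 contrasts 0 members were called under each alternative.

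Over all genes the DEX calls in controls (183) were 180 with edgeR, 437 with DESeq2, 62 with the compared groups alone and 72 to 289 when libraries were left out. In PS (0.703% of genes) DESeq2 gave 187, the compared groups alone 56, leaving out PS_sal_68 30 and library weights 529. In AS (100) DESeq2 gave 274, the compared groups alone 6 and leaving out libraries 11 to 118, with 1402 under library weights. In the average (625) edgeR gave 622, DESeq2 904, library weights 1328 and leaving out libraries 356 to 713. TMM moved the median of all genes by 0.002 and quantile normalization by -0.02 on the log2 scale. Groups of 2 or 3 libraries limit the precision, and the intervals of Ccnd2 and Cdkn1c are the widest of the members.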
